A study of Caenorhabditis elegans with 4 samples.

Results

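The regions described here are the LIN-13 binding peaks on the centre and right arm of chromosome III of Caenorhabditis elegans. They were taken from the combined ChIP-seq peak list as all chromosome III peaks whose midpoint lies at or beyond position 3443000 of WormBase build WS180. This rule uses position only and gave 473 of the 2769 peaks in the list. The chromosome III peaks left of that position, 218 in number, form the left arm. Below, "the stretch" means the centre together with the right arm, 10.3 Mb up to the farthest peak end at 13771425, and the right arm begins at 10329000, which is 3 times the left boundary and leaves the outer 25% of the chromosome.

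LIN-13 is a large nuclear protein with zinc fingers and a binding motif for LIN-35, the worm retinoblastoma protein. It belongs to the class B synthetic Multivulva genes, which restrain vulval fates and keep germline genes silent in the soma, and it has been found together with HPL-2, a worm heterochromatin protein 1, and LIN-61, a chromatin reader. Worm autosomes have no single centromere. Their arms are rich in repeats and in repressive histone methylation, and their centres are rich in widely expressed genes.

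Chromatin came from L4 (last larval stage) hermaphrodites of strain OP49, which were kept at 20 °C and fixed with 2% formaldehyde. All samples carry unc119(ed3) and the bombarded transgene wgIs49, in which lin-13 is fused to TY1, EGFP and FLAG tags and unc119 serves as the rescue marker. The genotype names no mutation of the worm's own lin-13, and bombardment can leave several transgene copies. The study has 2 LIN-13 ChIP samples, precipitated with a goat antibody against GFP, and 2 input DNA samples from the same strain. These groups follow the sample titles. The description fields go against them, as they read input DNA for the ChIP samples and name the antibody for the input samples. Peak lists were used for ChIP replicate 1 (1309 peaks), ChIP replicate 2 (734 peaks) and for the combined list. The authors called peaks with PeakSeq, a caller that sets ChIP reads against input, and gave each peak a q-value. Strength below means −log10 of that q-value, so that a larger strength is a smaller q-value, and it depends on sequencing depth, which is unknown for every list. Whether the replicates were separate cultures is not stated in the labels. Animals were whole worms, so a region bound in few cells cannot be told apart from a region bound weakly in many.

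Extra transgene copies of lin-13 and unc-119 can raise the read count over those genes. Both genes lie on chromosome III in the RefSeq gene table of assembly WBcel235, the chromosome described here. That assembly differs from WS180, so neither gene was placed among the peaks. Peaks at these 2 genes are concerned, and so are peaks in any neighbouring DNA that the transgene carries. How far that DNA extends is not known here. Which peaks of the stretch these are, if any, is unknown here, and the strongest may be among them. The part of copy number in such peaks was not tested. Genes next to the other peaks and the DNA sequence under them were not analysed here for the same reason.

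The stretch held 45.8 peaks per Mb in the combined list, 24.8 per Mb in replicate 1 and 14.5 per Mb in replicate 2. The other 5 chromosomes held 24.1, 10.8 and 6.14 per Mb in the same lists. The stretch was therefore 1.90 times as dense in the combined list, 2.29 times in replicate 1 and 2.36 times in replicate 2. The left arm of the same chromosome was denser still, with 63.3 combined peaks per Mb, so that the stretch had 0.723 times its density. That excess was uneven, as the fullest 500 kb step of the left arm held 77 of its 218 peaks, against a median of 25 per step. The difference between the stretch and the left arm was narrower in replicate 2, where the stretch had 0.926 times the density of the left arm. Chromosomes II and IV, the next densest, held 30.2 and 27.7 combined peaks per Mb. The stretch was not dense throughout, as some 500 kb steps described below held 24 per Mb, close to the value of the other chromosomes. None of these differences was tested, because peaks are no replicates and cluster along the chromosome.

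Within the stretch the centre and the right arm were close in density. The right arm held 150 peaks, or 43.6 per Mb, and the centre 323, or 46.9 per Mb. The ratio of right arm to centre was 0.929, with a 95% interval of 0.766 to 1.13 that covers counting error only. The replicates gave 0.860 and 0.970. Peaks covered 2.34% of the right arm and 2.92% of the centre, and the median width was 447 bp in the right arm against 459 bp in the centre. Median strength was also alike, at 6.58 in the right arm and 6.61 in the centre. The highest strength was 63.0 in the right arm and 104.86 in the centre.

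Density changed over short distances. In 500 kb steps counted from the left boundary, the 20 full steps held 12 to 33 combined peaks, with a median of 22.5 (mean 22.7 ± 6.54, SD over steps). For comparison, the median step held 14.5 peaks on chromosome II, 14 on IV and 25 on the 6 full steps of the left arm. Steps were uneven there too, with 0 to 33 peaks on II, 5 to 29 on IV and 14 to 77 on the left arm. The densest step of the stretch was III:5443000-5942999, where the combined list had 33 peaks, with 18 in replicate 1 and 11 in replicate 2. The sparsest steps held 12 combined peaks each. One, III:6443000-6942999, had 7 replicate 1 peaks and 4 replicate 2 peaks, and the other, III:8943000-9442999, had 5 and 6. Both sparse steps contain a long run with no peak. The longest run without a combined peak was 330 kb, at III:9060501-9390928, and the next were 262 kb at III:6625538-6887564 and 203 kb at III:8449481-8652766. Neither replicate list had a peak inside any of these 3 runs.

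The replicate lists followed the combined list in some steps only. Replicate 1 had its largest count, 20, at III:10443000-10942999, and replicate 2 had its largest count, 13, in the same step, which held 28 combined peaks. In the next step, III:10943000-11442999, the combined list held 27 peaks, but replicate 1 held 7 and replicate 2 held 4. Peaks there were narrow, with a median width of 317 bp, the smallest of the full steps, and a median strength of 5.42.

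**Figure D1:**
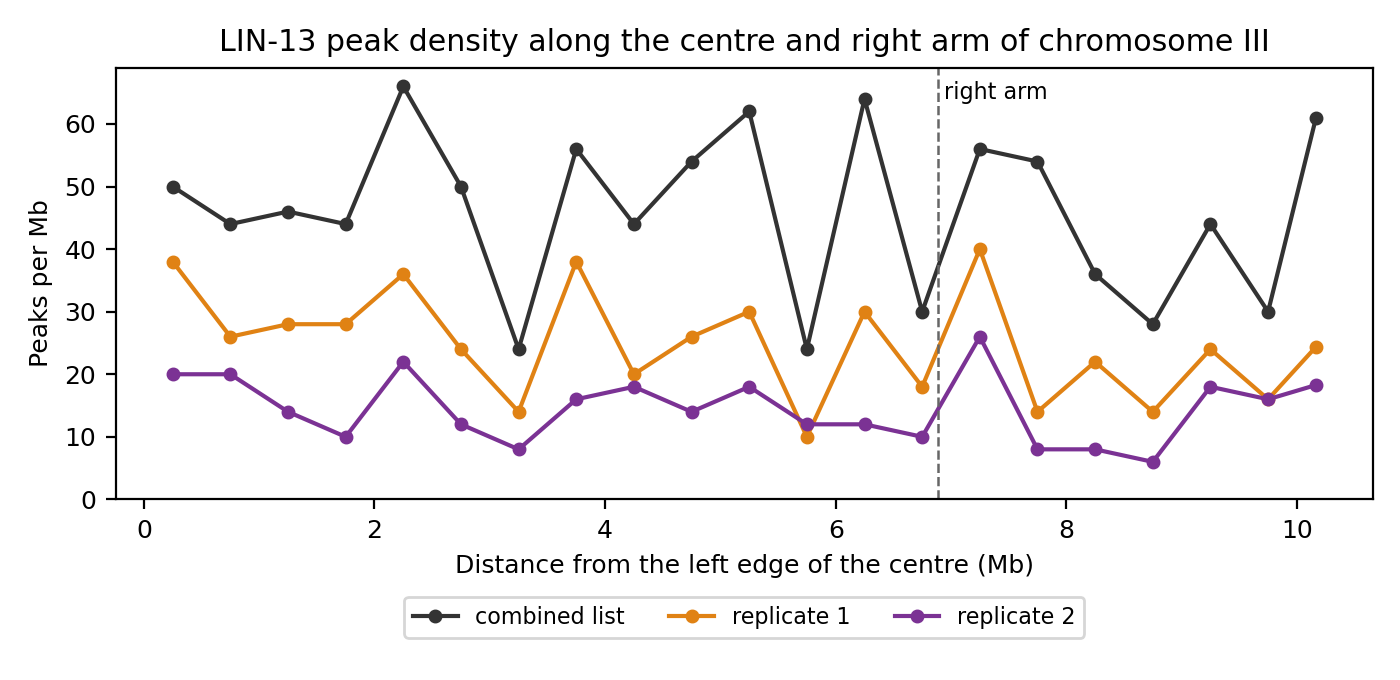
Peaks per Mb in 21 steps of 500 kb along the stretch, the last one shorter, for the combined list and the 2 replicate lists, against distance in Mb from the left edge of the centre, with a dashed line where the right arm starts. The combined list lies between 24 and 66 per Mb, with its lows in the steps that start 3 and 5.5 Mb from the edge, and both replicate lists are highest in the step that starts 7 Mb from it.

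Support by the replicates was then counted, with an overlap of at least 1 bp. Both replicates had a peak at 126 of the 473, or 26.6% (95% Wilson interval 22.9% to 30.8%), against 21.8% of all combined peaks. A further 116 were in replicate 1 only, or 24.5% against 22.9% of all combined peaks, and 23 were in replicate 2 only, or 4.86% against 3.43%. Counted singly, replicate 1 had a peak at 242 of the 473, or 51.2% against 44.7% of all combined peaks, and replicate 2 at 149, or 31.5% against 25.2%. The remaining 208 overlapped neither replicate, or 44.0% (39.6% to 48.5%), against 51.8% of all combined peaks. The share in both was 27.3% in the right arm (20.8% to 35.0%) and 26.3% in the centre (21.8% to 31.4%). The left arm had 21.1% in both (16.2% to 27.0%), and its interval overlaps that of the stretch. All of the list outside the stretch had 20.8% in both (19.2% to 22.5%) and 53.4% in neither (51.4% to 55.5%), and these intervals do not overlap those of the stretch. Chromosome I, with 11.1% in both, is part of it. Without chromosome I, a choice made after the data were seen, the rest had 22.3% in both (20.5% to 24.2%), which overlaps the interval of the stretch, and 51.5% in neither (49.3% to 53.7%), which does not. These differences were not tested. These intervals take peaks as independent, so they are too narrow where peaks cluster.

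Support followed strength. The 2 are not independent, here or below, because the combined list belongs to the same 2 ChIP samples as the replicate lists. Over the 126 peaks in both replicates, combined strength had a Pearson's r of 0.943 with the strength in each replicate. The relation is therefore no separate evidence for the strong peaks. Peaks in both replicates had a median combined strength of 13.8, with quartiles of 10.7 and 20.5. The median was 6.80 for peaks in replicate 1 only, 6.28 for replicate 2 only and 4.85 for neither. No peak in both replicates had a combined strength below 6.61. The combined list as a whole was divided into 4 groups of equal size by strength, from strongest to weakest, and the stretch held 133, 130, 112 and 98 peaks of these groups, or 28.1%, 27.5%, 23.7% and 20.7% of its own peaks. In the strongest group 106 of 133 were in both replicates, or 79.7% (72.1% to 85.7%), against 69.5% (65.5% to 73.1%) in the same group of the rest of the list and 75.2% (71.1% to 78.8%) in that rest without chromosome I. The second group had 15.4% in both (10.2% to 22.6%), against 14.4% (11.8% to 17.6%) in the rest. In the third group none of 112 peaks of the stretch was in both (0% to 3.32%), against 1.21% (0.586% to 2.47%) in the rest. The intervals of the stretch and of the rest overlap in each of these 3 groups. The share held by neither replicate did not lie on one side. It was 3.76% (1.62% to 8.50%) in the strongest group of the stretch, against 3.21% (2.04% to 5.02%) in the rest, and 40.0% (32.0% to 48.6%) in the second, against 37.9% (34.0% to 42.0%). In the third it was 58.9% (49.7% to 67.6%) in the stretch, against 77.6% (74.0% to 80.8%) in the rest, and in the weakest 86.7% (78.6% to 92.1%), against 91.9% (89.4% to 93.9%). The intervals were apart in the third group alone, and this difference was not tested. Without chromosome I, the rest had 1.89%, 32.4%, 74.9% and 91.4% in neither over the 4 groups.

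**Figure D2:**
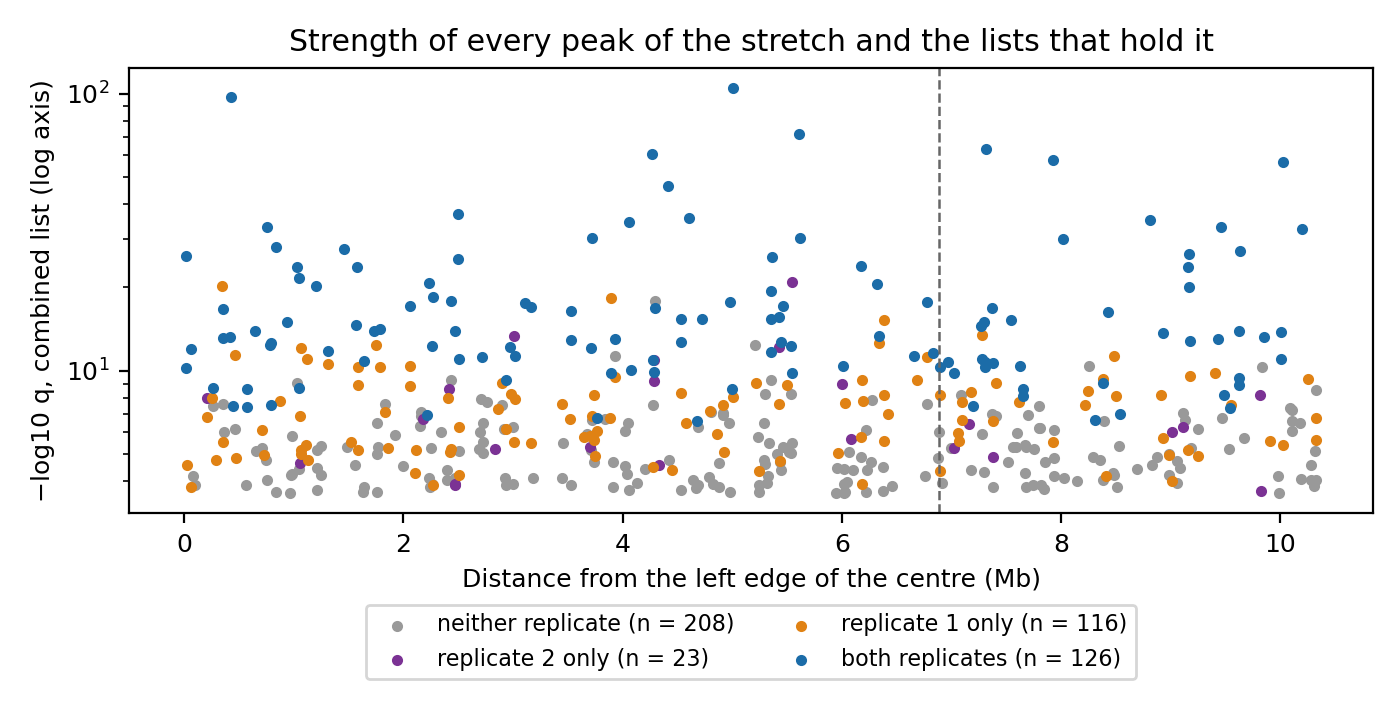
Combined-list strength (−log10 q, log axis) of each of the 473 peaks against distance in Mb from the left edge of the centre, coloured by the replicate lists that hold a peak there. Peaks found in both replicates fill the upper part of the plot along the whole stretch, and peaks found in neither lie mostly below a strength of 10.

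The stretch holds 17.1% of the peaks of the list. It held 7 of the 20 strongest, or 35%, and 18 of the strongest 100, which is close to its share of the list. The leading one, III:8443365-8447508, is 4144 bp wide. Its strength was 104.86 in the combined list, with 71.2 in replicate 1 and 41.1 in replicate 2, and it ranked 4 of 2769. The second, III:3866730-3869957 in the left part of the centre, had 96.96 in the combined list, with 52.5 in replicate 1 and 47.7 in replicate 2. Replicate 1 split it into 2 peaks, and the value given is that of the stronger. III:9050882-9055050, the widest peak of the stretch at 4169 bp, had a strength of 71.3 in the combined list, with 42.1 in replicate 1 and 28.3 in replicate 2. In all of these 3 regions replicate 1 was the stronger replicate.

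The fourth was of another shape. III:10758745-10759464, in the right arm, is only 720 bp wide, and its strength was 63.0 in the combined list, with 35.6 in replicate 1 and 34.6 in replicate 2. III:7708807-7712480 is 3674 bp wide and reached 60.5, 39.5 and 22.4 in these lists. III:11371886-11373438 is 1553 bp wide, and its strength was 57.8 in the combined list, with 34.9 in replicate 1 and 30.2 in replicate 2. It is the single strong member of a cluster of 5 in the right arm. The seventh, III:13462603-13465537, lies near the right end of the chromosome, is 2935 bp wide and had 56.6 in the combined list. Each replicate split it into 2 peaks, with strengths up to 27.5 in replicate 1 and 14.4 in replicate 2.

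The next 5 were weaker, and 3 of them were narrower than 1 kb. III:7854373-7854851, 479 bp wide, had 46.6 in the combined list, with 27.9 in replicate 1 and 21.7 in replicate 2. III:5938709-5941361, 2653 bp wide, had 36.7 in the combined list, at most 10.3 over 3 peaks in replicate 1, and 12.5 over 1 peak in replicate 2. It opens a cluster of 6 peaks. III:8043725-8044114, the narrowest of the 12 at 390 bp, had 35.6, 17.6 and 18.4 in these lists, so that the replicates were nearly level. III:12250100-12251206, 1107 bp wide, had 35.0 in the combined list, with 14.6 in replicate 1 and 12.3 in replicate 2. III:7497893-7498737, 845 bp wide, had 34.4 in the combined list, with 19.6 in replicate 1 and 16.4 in replicate 2. All 12 of these regions were found in both replicates, as were all of the 20 strongest peaks of the stretch, which reach down to a strength of 27.5. Combined strength and replicate support come from the same 2 ChIP samples, so the 1 does not check the other. Of the strongest 100, 85 were in both replicates, 9 in replicate 1 only, 3 in replicate 2 only and 3 in neither.

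Strengths in the 2 replicates went together. Over the 126 peaks in both, Pearson's r was 0.900 and Spearman's rho 0.649, as a description over regions that share their libraries. Without the 2 regions farthest from the replicate 1 median, r was 0.845. Replicate 1 had the larger strength in 100 of the 126 and replicate 2 in 26. The median was 7.97 in replicate 1, over a range of 3.84 to 71.2, and 6.23 in replicate 2, over a range of 3.99 to 47.7. The combined list exceeded both replicates in 121 of the 126. Since the depths of the lists are unknown, these offsets say nothing of how much LIN-13 was bound.

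The largest ratio of replicate 1 to replicate 2 strength stood over a peak that the lists divided differently. Replicate 1 had 1 peak at III:13446754-13447687 with a strength of 21.7. The combined list held 2 there, III:13446755-13447125 with 13.8 and III:13447347-13447687 with 11.0, and replicate 2 had 5.01 and 5.38 over them. The lists differed here in where they end a region. In all, 3 replicate 1 peaks and 3 replicate 2 peaks lay over more than 1 combined peak.

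**Figure D3:**
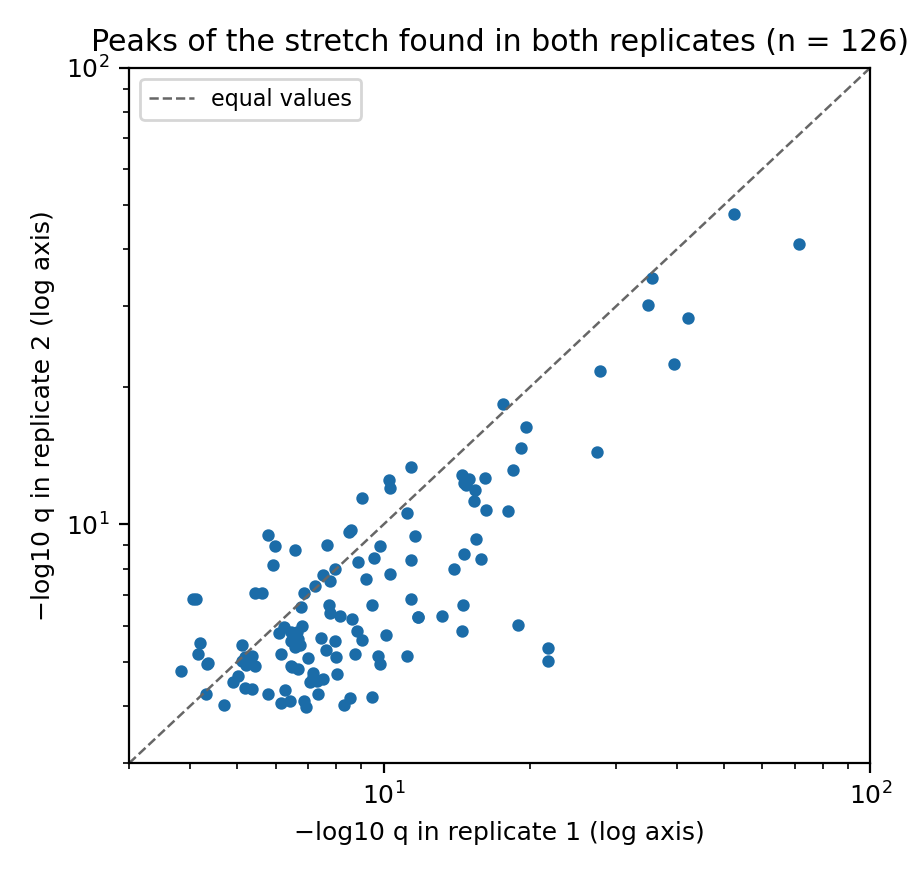
Strength (−log10 q) in replicate 1 and in replicate 2, both on log axes, for the 126 peaks of the stretch found in both replicates, with a dashed line at equal values. Points lie below the line in 100 of 126 regions, where replicate 1 is the stronger, and the region farthest right has a strength of 71.2 in replicate 1 and 41.1 in replicate 2.

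Where a combined peak matched exactly 1 peak in each replicate, the lists also placed it alike. This held for 116 regions. The centres of the 2 replicate peaks were a median of 40.5 bp apart (upper quartile 95 bp, largest 657 bp), and within 100 bp in 89 of 116. The combined peak was wider than both replicate peaks in 84 of 116. Median widths were 678 bp in the combined list, with 528 bp in replicate 1 and 450.5 bp in replicate 2.

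Broad peaks were a small part of the stretch by number and a larger one by length. Of the 473 peaks, 51 were 1 kb or wider, or 10.8% (8.30% to 13.9%), against 12.5% of all combined peaks, and 9 were 2 kb or wider, or 1.90% against 2.74%. On the left arm 12 of 218 peaks reached 1 kb, or 5.50% (3.18% to 9.37%), and on the other 5 chromosomes 284 of 2078, or 13.7% (12.3% to 15.2%). The 51 broad peaks made up 29.8% of the covered length of the stretch. Of these, 13 lay in the right arm, or 8.67% of its 150 peaks (5.13% to 14.3%). The other 38 lay in the centre, or 11.8% of its 323 peaks (8.69% to 15.7%), and the intervals overlap. Of the 9 peaks of 2 kb or wider, 1 lay in the right arm (0.667% of its peaks) and 8 in the centre (2.48%). Both replicates held 31 of the 51 broad peaks, or 60.8% (47.1% to 73.0%), against 95 of 422 narrower ones, or 22.5% (18.8% to 26.7%). The share of broad peaks in both replicates was not counted outside the stretch. Broad peaks were also stronger, with a median strength of 17.6 against 6.09 for peaks under 1 kb. The share of broad peaks was 22.0% when neighbouring peaks with gaps of at most 1 kb were first merged. Such gaps were 16.5% of all gaps in the stretch and 13.4% in the whole list, for which no merged share was counted. Over all 473 peaks, width and strength had a Spearman rho of 0.619. A caller that counts reads over a whole region can give wider regions smaller q-values, so the 2 measures are not independent. Support counted at an overlap of 1 bp is not independent of width either.

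Replicate lists cut some broad regions into pieces, but not most of them. Of the 51 broad peaks, 6 were split in replicate 1 and 3 in replicate 2, whereas no peak under 1 kb was split in either. No 2 neighbouring peaks in any list lay closer than 200 bp, which is the smallest gap in the combined list, while replicate 1 had 203 bp and replicate 2 had 204 bp. Pieces nearer than that were not listed apart.

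**Figure D4:**
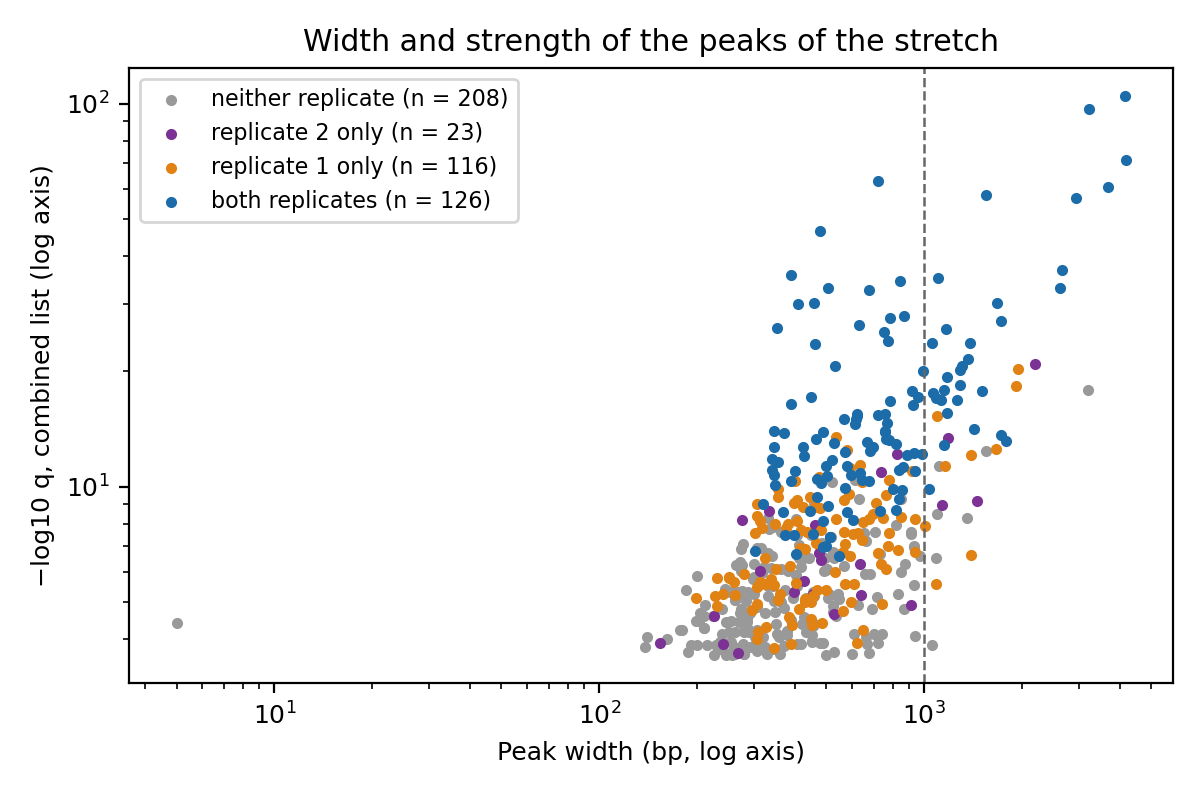
Combined-list strength (−log10 q) against width in bp, both on log axes, for the 473 peaks of the stretch, coloured by the replicate lists that hold them, with a dashed line at 1 kb. Of the 51 peaks at or right of the line, 31 were found in both replicates, while a 3199 bp peak with a strength of 17.9 was found in neither.

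Some strong or broad combined peaks lacked support in 1 or both replicates. The strongest with none was III:7731955-7735153, which is 3199 bp wide, the fifth widest of the stretch, and had a combined strength of 17.9. III:8652767-8654321, 1555 bp wide, had 12.4, and III:7373984-7375096, 1113 bp wide, had 11.3, again with no replicate peak. All 3 were thus broad. The strongest peak found in 1 replicate only was III:8981890-8984084, 2195 bp wide, whose combined strength was 20.9, while replicate 2 had 4.63 there and replicate 1 no peak. III:3789623-3791573, 1951 bp wide, had 20.3 in the combined list and 5.02 in replicate 1. III:7335168-7337090, 1923 bp wide, had 18.3 in the combined list and 6.57 in replicate 1. Replicate 2 had no peak at either of the last 2. In these regions the combined strength was far above that of the replicate that had a peak. At the other end of the scale, 1 combined peak of the stretch was narrower than 100 bp, measuring 5 bp, and neither replicate held it.

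Neighbouring peaks were often close. The median gap between neighbouring peaks was 7.75 kb in the stretch, 3.88 kb on the left arm, 12.8 kb on chromosome II and 14.5 kb on IV. Since gaps shorten as density rises, this restates the density in part. Peaks were chained into clusters where gaps were at most 5 kb. The stretch had 22 clusters of 4 or more peaks, holding 101 peaks, or 21.4% against 16.8% of all combined peaks. The left arm had 14 such clusters with 87 of its 218 peaks, or 39.9%. Clusters were 2.13 per Mb in the stretch, 4.07 on the left arm and 0.707 on the other 5 chromosomes. Of the 22, 6 lay in the right arm and 16 in the centre, or 1.74 and 2.32 per Mb. They spanned 3209 to 19506 bp, with a median of 8416.5 bp. Besides these, 24 groups of 3 and 72 pairs were found, and 156 peaks stood alone. The count of 22 rests on the gap chosen, since it was 7 with gaps of at most 2 kb and 36 with gaps of at most 10 kb.

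Clustered peaks were found in both replicates in 33 of 101 cases, or 32.7% (24.3% to 42.3%), against 32 of 156 lone peaks, or 20.5% (14.9% to 27.5%). These intervals overlap, and all peaks of the stretch had 26.6% in both. Peaks in pairs and groups of 3 are in neither set, and the difference was not tested. Clustered peaks were also wider, with a median of 596 bp against 400.5 bp for lone peaks, and stronger, with a median strength of 6.91 against 5.83 for lone peaks. In 17 of 22 clusters at least 1 peak was in both replicates, and in no cluster were all. In 1 cluster, III:8733077-8741697, no peak was in either replicate, and its 4 combined peaks had strengths of 4.62 to 8.26. Of the 20 strongest peaks, 2 lay in clusters of 4 or more, against 21.4% of all peaks of the stretch, and 7 stood alone, or 35% against 33.0%.

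The largest cluster held 8 peaks at III:7718242-7737747. Its 8 peaks covered 45.4% of 19506 bp, with strengths of 4.50 to 17.9, and it includes the 3199 bp peak that neither replicate held. Replicate 1 had 4 peaks within it, with strengths up to 9.03, and replicate 2 had 4, up to 13.1. In 3 of the 8 both replicates had a peak. The broad region III:7708807-7712480, described above, ends 5.76 kb to its left. The 9 peaks together run over 28.9 kb, III:7708807-7737747, of which they cover 43.3%.

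Clusters of 6 lay at III:5938709-5953728 and III:8974642-8987144. At III:5938709-5953728 strengths were 4.22 to 36.7, with 7 replicate 1 peaks and 3 replicate 2 peaks, and 3 of its 6 combined peaks were in both replicates. At III:8974642-8987144 strengths were 5.06 to 20.9, with 2 replicate 1 peaks and 3 replicate 2 peaks, and 2 of 6 were in both. The clusters with 5 peaks were 5 in number and differed in support. At III:8794656-8802546, 4 of 5 were in both replicates, with strengths of 9.27 to 25.8. At III:3796896-3804841, 2 of 5 were in both, with strengths of 5.56 to 16.7.

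The other 3 clusters of 5 were mostly made of weak peaks. At III:11371198-11379189 the strong region of 57.8 stood beside 4 peaks, of which 1 was in replicate 1 only and 3 in neither. At III:9456053-9467371, 1 of 5 was in both replicates, and the median strength was 3.92. At III:13761772-13771425, which ends with the last peak of the chromosome, none was in both, 2 were in replicate 1 only, and strengths were 4.05 to 8.50.

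**Figure D5:**
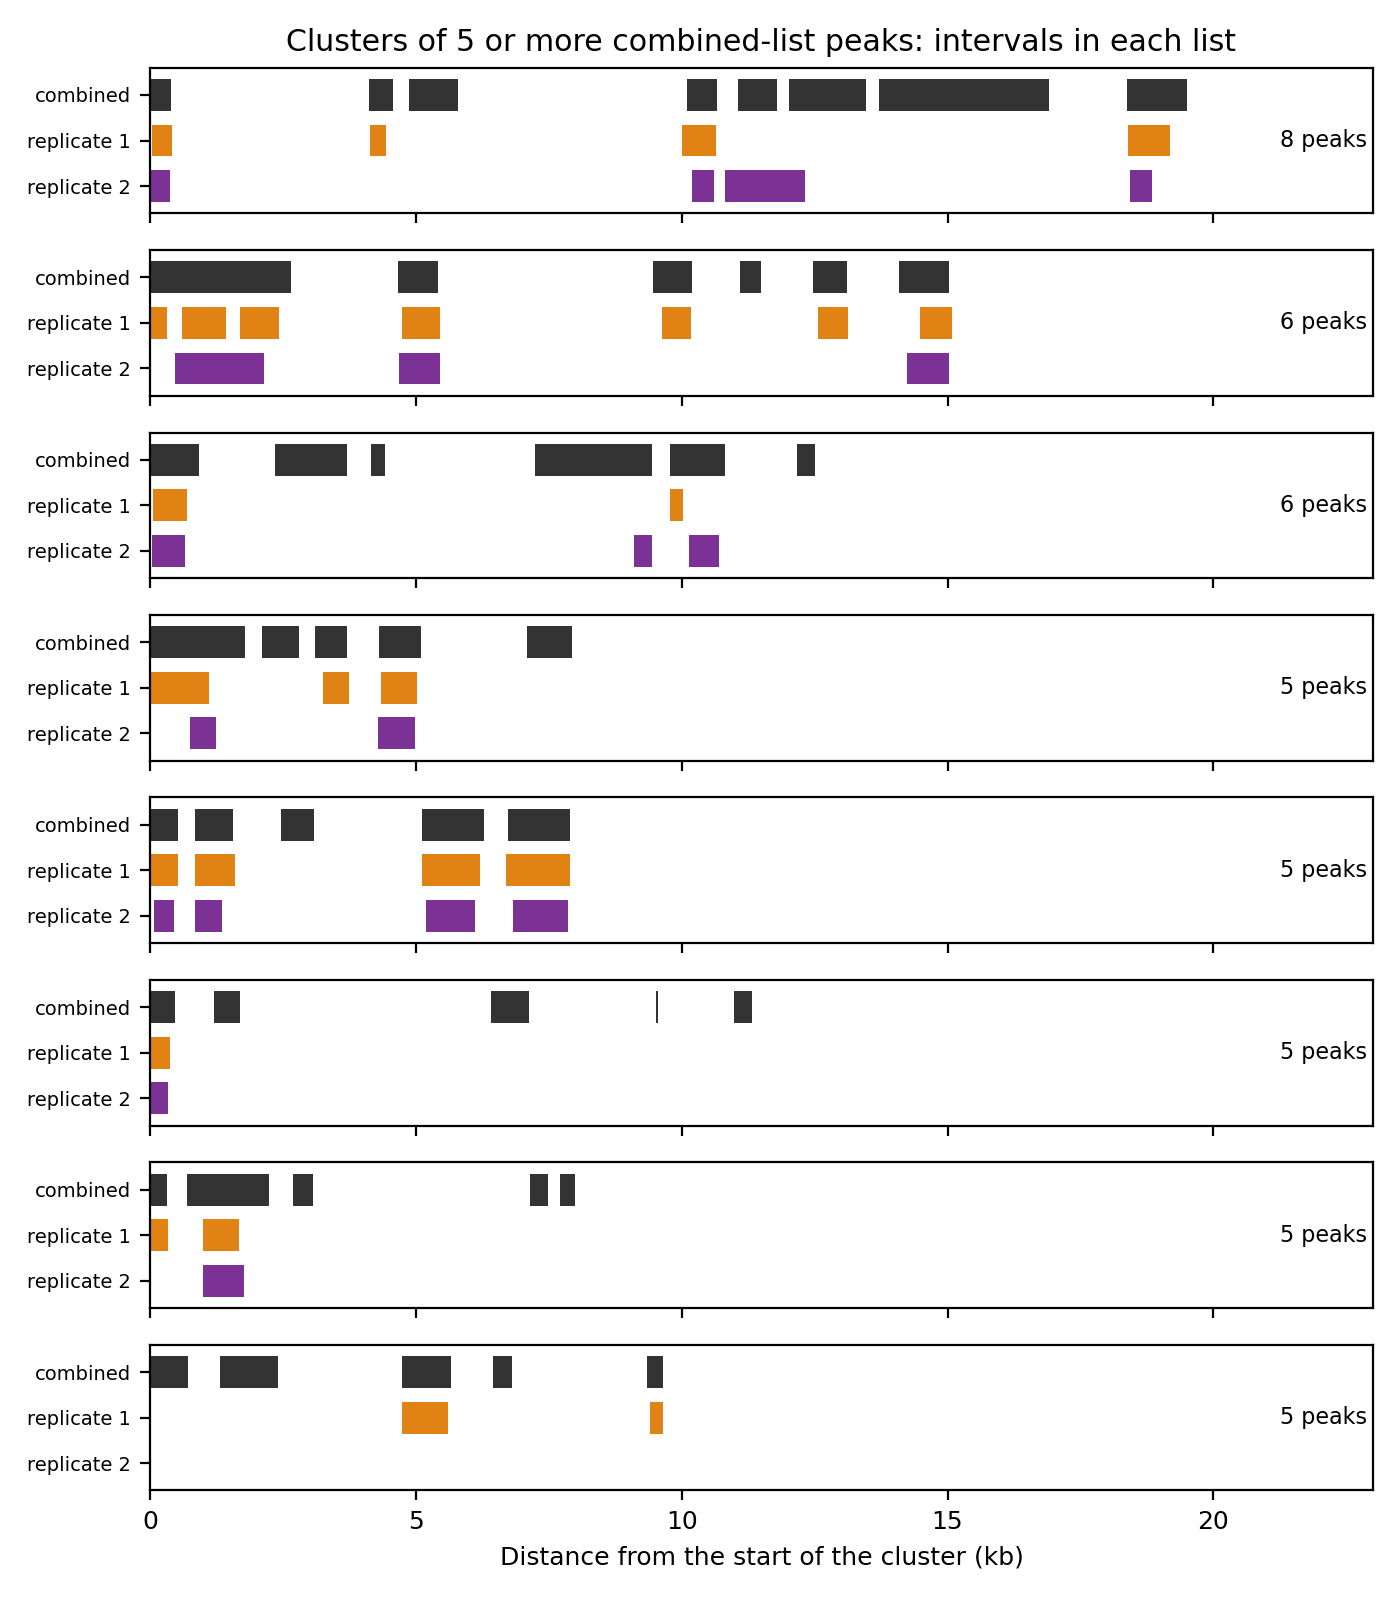
The 8 clusters of 5 or more combined-list peaks, one panel each in order of size and then of position, with the peaks of the combined list, replicate 1 and replicate 2 as boxes against distance in kb from the start of the cluster, to scale except that the 5 bp peak is drawn wider so that it can be seen. In the top panel, the cluster of 8, the longest box of the combined list, 3199 bp wide, has no box under it in either replicate.

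The longest run of neighbouring peaks without support in both replicates was 14 peaks over 329 kb, III:8448833-8778153, just right of the strongest region of the stretch. Of these, 3 were in replicate 1 only and 11 in neither, with a median strength of 5.14 and a largest of 12.4. It contains the 203 kb without a peak given above. Among the peaks in both replicates the median gap was 50.9 kb and the longest 396 kb.

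Nearly all replicate peaks of the stretch were in the combined list. Replicate 1 had 256 peaks in the stretch, of which 10 were absent from it, and replicate 2 had 150, of which 1 was absent. Over all chromosomes, 35 of 1309 replicate 1 peaks and 9 of 734 replicate 2 peaks were absent, so this is not particular to the stretch. The strongest replicate 1 peaks absent from the combined list were III:11442940-11443646 with a strength of 5.49, III:6006096-6006529 with 4.90 and III:7643879-7644463 with 4.39. The absent replicate 2 peak was III:13542447-13542880 with 4.35. None of the 11 overlapped a peak of the other replicate. Between the replicates, 126 of 150 replicate 2 peaks overlapped replicate 1, or 84.0%, and 126 of 256 replicate 1 peaks overlapped replicate 2, or 49.2%. The rest of the genome had 86.0% and 47.1%. The lists differ in length and in where they end, with a smallest strength of 3.83 in replicate 1 and 3.99 in replicate 2, and these shares depend on both.

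The left boundary fell in a gap. The first peak inside it, III:3456236-3456588, had a strength of 25.9 in the combined list, with 18.02 in replicate 1 and 10.7 in replicate 2. The second, III:3459966-3460447, had 10.2, 6.44 and 5.56 in these lists. The last peak outside, III:3389359-3389861, had 9.87 in the combined list, with 6.32 in replicate 1 and 4.20 in replicate 2, and the one before it had 6.90 in the combined list and 5.77 in replicate 2, with no replicate 1 peak.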

How the data were processed

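ChIP-seq peak lists were used for 2 LIN-13 ChIP samples and for their combined list. Peaks were called by the authors with PeakSeq on WormBase WS180, per the file headers and source column. The sources used here do not give the version, aligner, filters or making of the combined list. Each deposited peak has 1 value, a linear q-value, converted here to −log10 q. Read depth is unknown, and input values were not used.

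Overlaps (at least 1 bp), densities and clusters came from scripts in Python 3.11.15 (pandas 2.3.3, scipy 1.17.1, numpy 2.4.6). Overlap counts equalled those of bedtools 2.31.1, and the functions were tested on simulated data. The chromosome end was the farthest peak end. Intervals are 95% Wilson intervals and cover counting error only; that of the density ratio comes from the right arm's share of peaks. No chance test was run.

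Named were the 12 strongest and 5 widest peaks, the 5 largest clusters with all those tied, the 3 strongest peaks in no replicate and in 1 replicate, the 3 strongest absent replicate peaks, extreme steps and the longest gap. The 2 shorter gaps, the cluster without replicate peaks, the run without shared support and the region with the largest replicate ratio were chosen after their values were seen. Members, lists and rules were chosen with earlier results of these data known.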

Additional observations from a re-analysis of the deposited data

How the results depend on the processing

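Of 34 alternatives, 11 stayed within the interval of the reported value, or within 1.5 times a reported count. All 5 for the ratio of right arm to centre density did (0.860 to 0.970), as did the added one without chromosome I for the rest of the list (22.3%), which was chosen after seeing the data. The density of 45.8 per Mb fell by construction where fewer peaks were counted, to 25.5 in the stronger 50% of the list, 24.8 in replicate 1, 14.5 in replicate 2, 12.2 for peaks in both replicates and 38.2 with gaps of at most 1 kb counted once. The share in both replicates was 20.7% with an overlap of 50% of the combined peak, 22.8% with its centre inside a replicate peak and 47.9% in the stronger 50%, and 31.5% to 51.2% with 1 replicate left out. The share in neither was 21.7% in the stronger 50% and 48.8% to 68.5% with 1 replicate left out. The share of broad peaks was 1.90% at 2 kb, 6.67% in replicate 2 and 22.0% with gaps of at most 1 kb merged first. The 22 clusters became 7 with gaps of at most 2 kb, 36 with 10 kb, 5 in the stronger 50%, 3 in replicate 1 and 1 in replicate 2. Peaks in both replicates had a median strength of 13.8, and peaks under 1 kb 6.09. No paired analysis was possible because no input values were used, and the ChIP samples form 1 group. With depth unknown, a weak peak absent from 1 replicate cannot be told from one missed there.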
